A study of Mus musculus with 12 samples.

Results

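The genes encoding the proteins of the cytoplasmic ribosome were followed across 12 one-colour Agilent arrays of mouse bone marrow progenitors. Members were taken by name: a symbol that starts with Rpl or Rps and a digit, or Rplp0, Rplp1, Rplp2 or Rpsa, without the kinase genes of the Rps6k family. The rule found 88 of the 20284 named genes on the array. Of these, 43 encode proteins of the large 60S subunit, 30 proteins of the small 40S subunit and 3 the P stalk, and these 76 are called the core here. The other members were 8 paralogs (Rpl3l, Rpl7l1, Rpl10l, Rpl22l1, Rpl36al, Rpl39l, Rps4l and Rps27l), 2 genes with pseudogene names (Rpl34-ps1 and Rps15a-ps6), and 2 genes that share the name but are not ribosomal subunits (Rps19bp1, which binds Rps19, and Rps23rg1). Each gene is represented by its brightest probe.

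RNA came from 2 cell populations, 6 arrays each. Granulocyte-macrophage progenitors (GMPs) are committed to the myeloid lineage, and LSK cells, sorted for Sca-1 and c-Kit and for the absence of lineage markers, hold stem and multipotent progenitor cells. The arrays cover Tet2KD/KDEzh2-/- cells of mice with RAEB, the same genotype with MDS/MPN, and the same genotype without a disease label (double mutant). They also cover Ezh2-/- cells, Tet2KD/KD cells and wild-type cells. All were of the C57BL/6 strain and came from recipient mice repopulated with fetal liver cells. Tet2 is an enzyme that oxidises methylated cytosine, reduced here by a knockdown allele, and Ezh2 is the catalytic subunit of Polycomb repressive complex 2. MDS/MPN is a myelodysplastic and myeloproliferative disease, and RAEB a myelodysplastic disease with excess blasts. There was 1 array per cell type and state. The labels do not give the number of mice behind an array, so errors measure the spread between arrays.

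Ribosomal proteins assemble with ribosomal RNA in the nucleolus, and each is needed in about the same number of copies per ribosome. Most of their mRNAs begin with a 5′ terminal oligopyrimidine (TOP) tract, through which mTOR signalling sets their translation together, and MYC raises the transcription of many of them. Blood progenitors are sensitive to their dose: loss of 1 copy of RPS19, RPL5, RPL11 or several others causes Diamond-Blackfan anaemia in humans, and loss of RPS14 contributes to the 5q- syndrome, a myelodysplastic disease.

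Levels are log2 processed signals minus the log2 of the array's own 75th percentile, so 0 is the 75th percentile and a difference of 1 is a doubling. All 76 core genes were well above background on all 12 arrays, with mean levels of 8.13 to 10.85, near the top of the array. Of the 88 members, 87 passed the filter, a probe well above background on at least 2 arrays. Rpl10l, a testis paralog of Rpl10, was not well above background on any array. In all, 13713 genes were tested. Of the 12 LSK markers tested, 12 were lower in GMPs, and of the 8 GMP markers tested, 8 were higher. Tet2 levels ran from -3.09 to -0.64 on the 8 arrays with the Tet2 allele, against 0.12 to 1.57 on the 4 arrays without it. The Ezh2 probe did not separate the genotypes, at 2.65 to 3.35 on the Ezh2-/- arrays and 2.50 to 3.40 on the others. Its position relative to the deletion was not checked. The 8 arrays without disease lay on 1 slide, the diseased LSK arrays on another and the diseased GMP arrays on another still, so disease and slide cannot be told apart. Arrays also differed in sex-linked signal: Xist was high on 6 of the 12.

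Most core genes moved together from array to array. On GMP arrays the core median was 10.19 in RAEB, 10.19 in MDS/MPN, 9.84 in double mutant, 9.71 in Ezh2-null, 9.81 in Tet2 knockdown and 9.75 in wild-type cells. On LSK arrays it was 9.54 in RAEB, 9.53 in MDS/MPN, 9.44 in double mutant, 9.56 in Ezh2-null, 9.78 in Tet2 knockdown and 9.47 in wild-type cells. The diseased GMP arrays were the highest, and the LSK array of Tet2 knockdown cells was the only LSK array that reached the GMP arrays. The correlation of a core gene with the core median over the 12 arrays had a median Pearson r of 0.92, with a range of 0.35 to 0.99, and was above 0.8 for 69 of 76 genes. These points share their arrays and each array's scaling, so r is a description. After the core median was subtracted, the SD of a gene over 12 arrays had a median of 0.11, with the largest at 0.25 for Rps2.

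**Figure D1:**
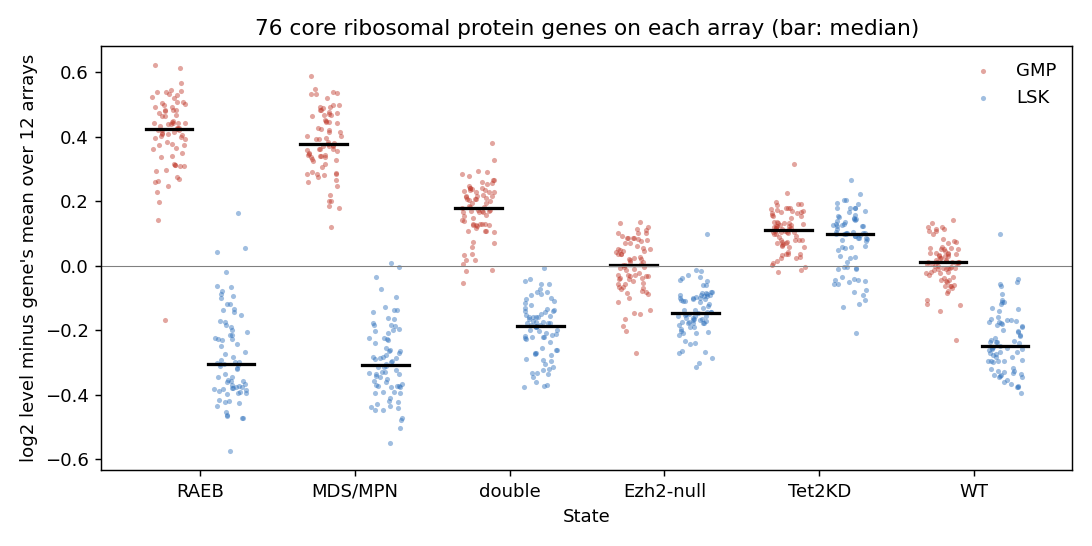
Levels of the 76 core ribosomal protein genes on each array, as the log2 level minus the gene's own mean over 12 arrays (vertical axis), by state (horizontal axis), with GMP in red and LSK in blue. Each point is 1 gene and each bar the median. The median lies highest on the diseased GMP arrays, where 74 of 76 core genes were above the double mutant GMP array in each, with GMP and LSK about level in Tet2 knockdown cells.

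Outside the family, the 5 genes most like the core median were chosen by Pearson r among 11070 genes well above background on all 12 arrays. They included Rgs14 (r = 0.99), Adipor1 (0.98), Mcrip1 (0.98) and Gm8580 (0.98).

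GMPs were compared with LSK cells over the 6 states. After scaling on the 75th percentile, 33 of 87 members were higher in GMPs and 0 were lower, by limma with an adjusted p under 0.05. Of all genes tested, 25.6% were called higher and 18.7% lower. By class, the members called higher were 21 of 43 60S genes, 8 of 30 40S genes, 0 of 3 P stalk genes, 2 of 7 paralogs tested, Rps19bp1 and Rpl34-ps1. The counts do not follow the size of the difference, whose median was 0.37 for 60S, 0.33 for 40S and 0.42 for P stalk genes. The median difference of the core was 0.36, and 76 of 76 genes had a positive difference, from 0.09 for Rpl21 to 0.63 for Rpl10. The median of all genes tested was 0.16.

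The size of this shift rests on the scaling. Quantile normalization gives all arrays the same distribution, so it removes most of a shift shared by the brightest probes, where the core lies. It therefore cannot show whether the core shifted as a whole. It gave a core median of -0.03, with 28 of 76 differences positive. The 3 members then higher were Rps27l, Rpl36al and Rps19bp1, and the 5 lower included Rpl21 (-0.36), Rpl22l1 (-0.39), Rps3a1 (-0.32) and Rps7 (-0.30). Of all genes tested, 19.1% were then higher and 22.6% lower. Scaled on the 7 spike-in probes used, the core had a median of 0.11 and limma called 0 members, with 2 at an unadjusted p under 0.05. Of all genes 5.14% were then higher and 13.8% lower, with a median of -0.08. Of other genes in the same level range as the core, 36 of 91 were higher and 0 lower, with a median difference of 0.34, which was -0.06 under quantile normalization. Within the 8 arrays of 1 slide the core median was 0.19, against 0.12 for all genes, and 15 members (17.2%) were called higher, against 30.7% of all genes. With the sex pattern as a covariate both medians were the same, and 13 members (14.9%) were higher, against 27% of all genes. In that fit the covariate cannot be told apart from disease by cell type, so the estimate comes from the same 8 arrays. The 2 settings are therefore not separate checks. In both settings the share of members was below that of all genes. Leaving out either array of 1 state gave 8 calls without double mutant, 13 without MDS/MPN or wild-type and 17 without Ezh2-null cells, while 17.6%, 20.6%, 18.5% and 20% of all genes were higher without those states in turn.

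By state, the core's median GMP minus LSK difference was 0.69 in RAEB, 0.71 in MDS/MPN, 0.37 in double mutant, 0.13 in Ezh2-null, 0.02 in Tet2 knockdown and 0.25 in wild-type cells. The signals before scaling show where these values arise. The median core signal was 196502 and 219827 units on the GMP arrays of RAEB and MDS/MPN, against 290860 and 273131 on the LSK arrays of the same states. The 75th percentile was 168.5 and 188.8 units on those GMP arrays, against 389.4 and 369.2 on those LSK arrays. In the diseased states the core signal itself was therefore lower in GMPs, and the percentile was lower still. In wild-type cells the core signal was 207258 units in GMPs and 165416 in LSK cells, with percentiles of 241.4 and 233.7.

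**Figure D2:**
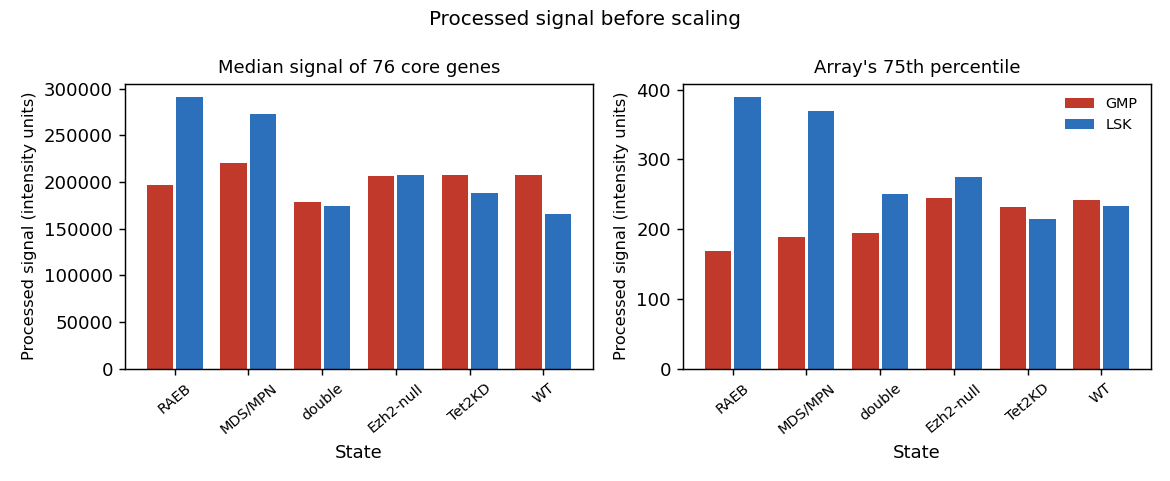
Processed signal in intensity units before scaling, by state, with GMP in red and LSK in blue and 1 bar per array. The left panel gives the median of the 76 core genes and the right panel the array's 75th percentile, each from 0; both are higher on the diseased LSK arrays than on the diseased GMP arrays.

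Against that common shift, 2 paralogs stood out. Rps27l, a p53-induced paralog of Rps27 that binds Mdm2, had a level of 7.65 on its lowest GMP array, 7.81 at the median and 8.19 on the highest. On the LSK arrays it ran from 6.70 through 6.89 to 6.99, so the cell types did not overlap. Its difference was 1.02 (SE 0.13, limma adjusted p = 0.00063), a 2.03-fold rise with the same sign in 6 of 6 states. Rpl36al, an autosomal paralog of X-linked Rpl36a, had GMP levels of 7.67, 7.89 and 8.01 (lowest, median, highest), against LSK levels of 6.79, 6.96 and 7.06. Its arrays did not overlap either, and it rose by 0.94 (SE 0.12, limma adjusted p = 0.00062) in 6 of 6 states.

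Both rises held under quantile normalization, at 0.49 (limma adjusted p = 0.0050) for Rps27l and 0.40 (adjusted p = 0.019) for Rpl36al. They were also the 2 members called when each array was scaled on the median of the core itself, at 0.66 (limma adjusted p = 0.0080) and 0.57 (adjusted p = 0.022). In that scaling 9.47% of all genes were higher and 29.1% lower. With spike-in scaling they were 0.78 and 0.69, with limma adjusted p of 0.17 and 0.25.

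The parents differed less. Rps27, a zinc-finger protein of the 40S subunit, had levels of 10.08, 10.27 and 10.64 on GMP arrays (lowest, median, highest) and 9.81, 10.13 and 10.36 on LSK arrays, which overlapped. Its difference was 0.24 (SE 0.17, limma adjusted p = 0.27). Rpl36a was at 8.59, 8.72 and 9.10 on GMP arrays and 8.30, 8.48 and 8.73 on LSK arrays, also overlapping, with a difference of 0.28 (SE 0.13, limma adjusted p = 0.10).

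The start regions of these 4 genes are shown because the 2 largest called differences belong to these paralogs. Each line gives 40 bases before to 20 bases after the annotated start, from RefSeq on GRCm38.p6, 5′ to 3′ on the gene's strand. Capitals mark CTTTC, a short TOP-like run, and CGGAAG or its reverse complement CTTCCG, a core letter string of ETS-family sites.
Rps27l (chr9:66946046-66946105, plus strand): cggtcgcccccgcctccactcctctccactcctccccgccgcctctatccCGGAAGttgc
Rps27 (chr3:90213629-90213688, minus strand): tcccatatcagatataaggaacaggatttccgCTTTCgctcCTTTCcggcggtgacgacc
Rpl36al (chr12:69184048-69184107, minus strand): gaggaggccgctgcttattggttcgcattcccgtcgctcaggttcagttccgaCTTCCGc
Rpl36a (chrX:134585614-134585673, plus strand): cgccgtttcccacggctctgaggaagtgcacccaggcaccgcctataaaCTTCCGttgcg
Rps27 carries CTTTC at 2 places in the bases shown. Rpl36al and Rpl36a hold it further on, within the 50 bases after the start that were searched, and Rps27l does not hold it in that window. CGGAAG, on either strand, was in the searched window of all 4, in Rps27 outside the bases shown. Rps27l has 2 starts in the table, of which the first listed is printed.

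Of the 88 members, 65 had an entry in the promoter table, among them 56 of the core. CTTTC, searched on the gene's own strand from 40 bases before to 50 after the start, was in 30 of the 56 core genes (53.6%), against 13.2% of the 27025 genes in the table. CGGAAG, searched on both strands from 250 bases before to 50 after, was in 40 of 56 (71.4%), against 18.8% of all genes. Both were in 21 of the 56, and the strings can share a C at their ends. Of the 7 paralogs with an entry, 2 held CTTTC and 3 CGGAAG. A match is a string of letters in these windows and not a measured site.

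Paralogs were set against their parents within each array, which removes any scaling factor common to the array. The shift was the paralog's GMP minus LSK difference minus the parent's, over 6 states, and 5 pairs were compared by an exact sign-flip test (two-sided). The smallest p that 6 states allow is 0.031, and adjusted over 5 pairs it could pass 0.05 only if at least 4 pairs reached it. Rps27l minus Rps27 shifted by 0.78 ± 0.48 (SD, n = 6 states), positive in 5 of 6, with an exact p = 0.063 (adjusted 0.10). Rpl36al minus Rpl36a shifted by 0.65 ± 0.34, positive in 6 of 6 (exact p = 0.031, adjusted 0.078). Both shifts were smallest in RAEB, at -0.08 for Rps27l and 0.06 for Rpl36al, and in wild-type cells they were 1.17 and 0.82.

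Rpl22l1 minus Rpl22 ran the other way, by -0.39 ± 0.28, negative in 6 of 6 states (exact p = 0.031, adjusted 0.078). Rpl22 is an RNA-binding 60S protein that in mouse represses its paralog Rpl22l1. Rpl22 was at 9.68, 9.76 and 9.92 on GMP arrays (lowest, median, highest), against 9.21, 9.28 and 9.43 on LSK arrays, without overlap. It rose by 0.47 (SE 0.11, limma adjusted p = 0.010), although its second probe went down. With the mean of its probes the value was -0.38 (limma adjusted p = 0.032). Rpl22l1 was at 7.36, 7.91 and 8.01 in GMPs and 7.64, 7.71 and 7.96 in LSK cells, which overlapped, with a difference of 0.08 (limma adjusted p = 0.63).

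Rpl7l1 minus Rpl7 shifted by 0.39 ± 0.56 (exact p = 0.16, adjusted 0.16), with 5 of 6 states positive and RAEB at -0.64. Rps4l minus Rps4x shifted by 1.20 ± 1.54 (exact p = 0.094, adjusted 0.12). None of the 5 pairs passed 0.05 after adjustment. Under quantile normalization 4 of the 5 did, with an adjusted exact p of 0.039 each, for Rps27l, Rpl36al, Rpl7l1 and Rpl22l1. Specificity of the probes between a paralog and its parent was not checked.

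**Figure D3:**
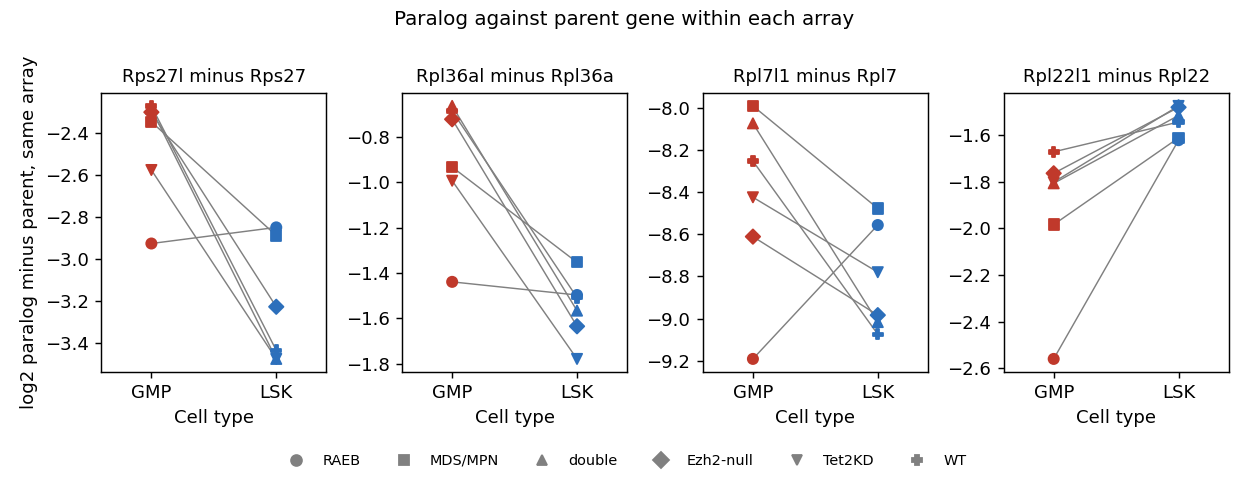
Paralog minus parent gene within the same array, as a log2 difference (vertical axis, own scale per panel), with GMP left and LSK right. Lines join the 2 arrays of a state and marker shapes give the state; Rps27l lies higher in GMPs in 5 of 6 states and Rpl36al in 6 of 6, both by least in RAEB, and Rpl22l1 lies lower in GMPs in 6 of 6 states.

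Among the core genes called higher in GMPs, the 3 largest with the same sign in 6 of 6 states were Rpl10, Rpl41 and Rps25. Rpl10, an X-linked protein that joins the 60S subunit late in its maturation, was at 10.45, 10.64 and 11.01 on GMP arrays (lowest, median, highest) and 9.94, 10.02 and 10.40 on LSK arrays. Its difference was 0.63 (SE 0.15, limma adjusted p = 0.012). Rpl41, the shortest ribosomal protein, was at 10.45, 10.61 and 10.89 in GMPs and 9.90, 10.08 and 10.31 in LSK cells, with a difference of 0.57 (SE 0.15, limma adjusted p = 0.015). Rps25, a 40S protein used in internal initiation, was at 9.19, 9.32 and 9.63 in GMPs and 8.76, 8.80 and 8.98 in LSK cells, with a difference of 0.55 (SE 0.12, limma adjusted p = 0.0089). None of these 3 overlapped between the cell types, but they were picked for large differences with 1 sign in all states. The share of all genes without overlap is not given, here or for the other members described so. Under quantile normalization their limma adjusted p were 0.052, 0.13 and 0.13.

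Rps19bp1, which is not a ribosomal subunit, was at 3.67, 3.86 and 4.31 in GMPs and 3.03, 3.25 and 3.40 in LSK cells, without overlap. It rose by 0.68 (SE 0.14, limma adjusted p = 0.0059), and by 0.39 under quantile normalization (limma adjusted p = 0.013). The 3 P stalk genes, which recruit the GTPase factors of translation, had differences of 0.42 (Rplp0), 0.42 (Rplp1) and 0.39 (Rplp2), with limma adjusted p of 0.065 to 0.070. Rpsa, also known as a laminin-binding protein, differed by 0.33 (limma adjusted p = 0.13), and Rps6, the target of S6 kinase, by 0.31 (limma adjusted p = 0.084).

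Of the 20 genes listed for Diamond-Blackfan anaemia and the 5q- syndrome, 11 were higher and 0 lower in GMPs, with a median of 0.38, against 25.6% of all genes higher and a median of 0.16. In the core as a whole 29 of 76 genes were higher, with a median of 0.36, so the median of the listed genes was near that of the core. Under quantile normalization 0 of the 20 were higher and 1 lower. Rpl5 and Rpl11, which with 5S RNA bind Mdm2, were both called, at 0.33 (SE 0.11, limma adjusted p = 0.039) and 0.43 (SE 0.13, limma adjusted p = 0.029). Rpl5 was -0.14 under quantile normalization. Rps19, the most often mutated gene in that anaemia, differed by 0.29 (limma adjusted p = 0.12), and Rps14 by 0.33 (limma adjusted p = 0.18). The X-linked Rpl36a, Rpl39 and Rps4x were not called, at 0.28, 0.34 and 0.23.

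Other genes of translation were set beside the core. Of the mitochondrial ribosomal proteins, which serve a separate ribosome and which were added as a list after values were seen, 66 of 77 were higher in GMPs and 1 lower, with a median of 0.71. Under quantile normalization 44 were higher and 1 lower, with a median of 0.37. Mrpl33 rose by 1.46 (SE 0.15, limma adjusted p = 0.00021) and Mrps21 by 1.04 (SE 0.14, limma adjusted p = 0.00088).

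Of 71 genes of ribosome biogenesis and RNA polymerase I, 30 were higher and 0 lower, with a median of 0.42. Nhp2, a protein of the H/ACA particles that modify ribosomal RNA, rose by 1.03 (SE 0.17, limma adjusted p = 0.0022). Of 38 translation initiation factors, 26 were higher and 0 lower, with a median of 0.57, among them Eif4b at 0.84 (SE 0.11, limma adjusted p = 0.00066). Of 22 other TOP mRNAs, 8 were higher and 0 lower, with a median of 0.36. The difference between these lists and the core was not tested. Of 18 MYC and mTOR regulators 2 were higher and 3 lower, against 25.6% and 18.7% of all genes. Their median was 0.16, that of all genes. Among these regulators, Tsc1 and Tsc2, which restrain mTOR, fell by 0.77 (SE 0.12, limma adjusted p = 0.0018) and by 0.92 (SE 0.19, limma adjusted p = 0.0062) in GMPs. The 2 regulators called higher are not named here, and mTOR activity was not measured. Of 21 proliferation genes 5 were higher, a share near the 25.6% of all genes, with a median of 0.34. Their part in the core's difference was not tested.

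**Figure D4:**
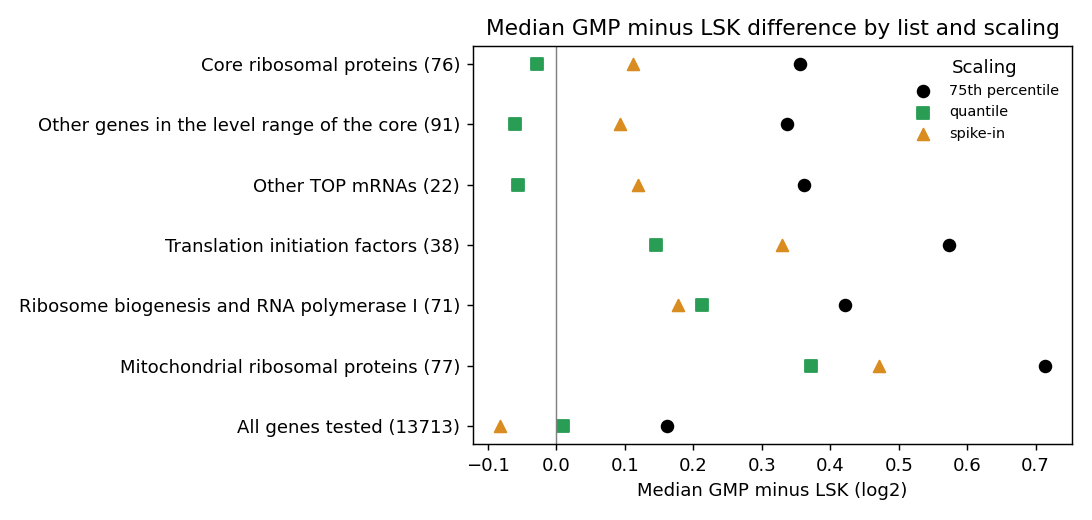
Median GMP minus LSK log2 difference (horizontal axis) of the core and of 6 other sets of genes, with the number tested in brackets, under 3 scalings. The core lies at 0.36 with the 75th percentile and at -0.03 with quantile normalization, while the mitochondrial ribosomal proteins lie above 0 under each of the 3. Quantile normalization removes most of a shift shared by the brightest probes, where the core lies but not the dimmer mitochondrial set.

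Genotype was compared on the 8 arrays without disease. For Ezh2 loss, 0 of 87 members were called by limma and 0 had an unadjusted p under 0.05, against 0.19% of all genes called and 1196 genes at the unadjusted level. Core genes had a median of -0.04, with 17 of 76 differences positive, which became 0.02 without the LSK array of either Tet2 knockdown or double mutant cells. The 4 matched pairs disagreed: 0.09 in LSK cells and -0.02 in GMPs with normal Tet2, and -0.27 in LSK cells and 0.08 in GMPs with Tet2 knocked down. Each pair also differed in sex-linked signal, in opposite directions with and without Tet2 knockdown. The median of the sex-linked genes in LSK cells was -6.09 in wild-type and -6.235 in double mutant cells. It was -1.01 in Tet2 knockdown and -0.94 in Ezh2-null LSK cells, and GMPs had the same pattern. Differences between the pairs therefore cannot be told apart from sex signal. Rps15a-ps6 was the only member with the same sign in 4 of 4 pairs, at -0.17 (SE 0.12, limma adjusted p = 0.81).

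For Tet2 knockdown, 0 of 87 members and 0% of all genes were called by limma, with 2 members (Rps15a-ps6 and Rpl39l) and 780 genes at an unadjusted p under 0.05. Rpl39l, named after its value was seen, was not well above background on most of these arrays. The core had a median of 0.14 and 76 of 76 differences were positive, against 0.02 for all genes tested. The pairs gave 0.30 in LSK cells and 0.09 in GMPs with Ezh2 intact, and -0.04 in LSK cells and 0.17 in GMPs without Ezh2. These pairs too differed in sex-linked signal, in opposite directions with and without Ezh2, so their differences cannot be told apart from it. Under quantile normalization the core median was 0.00720, with 45 of 76 differences positive, and without the Tet2 knockdown LSK array it was 0.07. With spike-in scaling it was -0.13, where that of all genes was -0.24. Values for large differences with the same sign in 4 of 4 pairs were 0.34 for Rps15a-ps6 (SE 0.12), 0.22 for Rpl39 (SE 0.10) and 0.21 for Rplp1 (SE 0.11), with a limma adjusted p of 0.82 for each. Rpl10 was at 10.40 on the Tet2 knockdown LSK array, against 10.02 in wild-type LSK cells, and this was the highest of its 6 LSK values. The core median was also highest on that array among the LSK arrays.

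The effect of neither genotype was shown to differ between the cell types. For Ezh2 loss in GMPs minus that in LSK cells, limma called 0 of 87 members and 0% of all genes, with 0 members and 799 genes at an unadjusted p under 0.05. The core median was 0.12, or -0.0255 under quantile normalization, and the largest value was 0.31 for Rps14 (SE 0.23). For Tet2 knockdown the same test called 0 of 87 members and 0% of all genes, with 0 members and 262 genes at the unadjusted level, and a core median of 0.00360.

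In double mutant against wild-type cells, limma called 0 of 87 members and 0% of all genes, with 0 members and 434 genes at an unadjusted p under 0.05. Core genes had a median of 0.09, or 0.00142 under quantile normalization, from 0.17 in GMPs and 0.03 in LSK cells. Rps2, a 40S protein near the mRNA entry channel, had the largest core difference with the same sign in both, at 0.28 (SE 0.21). In diseased against double mutant cells without a disease label, limma called 0 of 87 members and 0% of all genes, with 0 members and 1881 genes at the unadjusted level. The core median was 0.06, against 0.10 for all genes, with values of 0.26 (RAEB) and 0.20 (MDS/MPN) in GMPs and -0.10 and -0.12 in LSK cells. It was -0.05 without either diseased GMP array and -0.22 with the sex pattern as a covariate. That covariate cannot be told apart from disease by cell type in this fit, so -0.22 is not an adjustment for sex alone. Rpl28, Rpl6, Rps3a1 and Rpl3 had the same sign in 4 of 4 pairs, Rpl28 with the largest difference, 0.33 (SE 0.16, limma adjusted p = 0.42).

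In RAEB against MDS/MPN, limma called 0 of 87 members and 0% of all genes, with 0 members and 364 genes at an unadjusted p under 0.05, and a core median of 0.03. On the GMP arrays the core median was 10.19 in RAEB and 10.19 in MDS/MPN, whereas the median of mitochondrial ribosomal proteins was 4.48 and 5.26, and that of ribosome biogenesis genes 2.90 and 3.47. Several non-core members were also lower in RAEB: Rps27l was at 7.71 in RAEB and 8.19 in MDS/MPN, Rpl22l1 at 7.36 and 7.87, Rpl36al at 7.67 and 8.01, and Rps19bp1 at 3.67 and 4.31. Rpl7l1 was at 0.22 in RAEB GMPs and 1.41 in MDS/MPN GMPs. Other non-core members were higher in RAEB GMPs: Rps23rg1 was at 0.34 in RAEB and -0.36 in MDS/MPN, and Rps15a-ps6 at -1.27 and -1.42. Rpl3l, at -4.00 and -4.39, was not well above background on either array. These are single arrays and were not tested apart from the fit over both cell types. Immediate-early and stress genes had a median of 5.87 on the RAEB GMP array and 4.38 on the MDS/MPN GMP array. Proliferation genes had a median of 4.43 in RAEB and 5.46 in MDS/MPN there, and the part of either list was not tested.

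Whether the GMP minus LSK difference itself changed with disease was tested after the levels were seen. The median of the sex-linked genes was -1.55 and -2.34 in the GMPs of RAEB and MDS/MPN, against -6.59 and -6.61 in their LSK cells, and differed by less between the cell types in each disease-free state. Disease, slide and sex signal therefore cannot be told apart in this contrast. In diseased minus disease-free states, 0 of 87 members were called by limma, against 7.56% of all genes, and 42 members and 3926 genes had an unadjusted p under 0.05. Without any 1 disease-free array 0.423% to 0.54% of all genes were called. The core median was 0.50, against 0.05 for all genes. With 1 diseased state left, it was 0.48 without either MDS/MPN array and 0.50 without either RAEB array. The medians of all genes were then -0.08 and 0.20. The smallest adjusted p of a member was that of Rpl15, at 0.88 (SE 0.21, limma adjusted p = 0.055). Rps14 was at 11.26 and 11.20 in the GMPs of RAEB and MDS/MPN, and at 10.28 and 10.35 in the LSK cells of those states, against 10.76 to 10.98 on the LSK arrays without disease. Its difference was 0.87 (SE 0.22, limma adjusted p = 0.062). Before scaling, the Rps14 signal lay between 414310 and 489370 units on all 12 arrays. The 75th percentile was 389.4 and 369.2 units on the LSK arrays of RAEB and MDS/MPN, against 214.9 to 275.3 on the other LSK arrays. Its distance from the core median does not depend on that percentile. Relative to its usual distance, Rps14 was at -0.39 and -0.30 on the LSK arrays of RAEB and MDS/MPN. On the other LSK arrays it was at 0.08 to 0.36. The cause of the lower Rps14 level was not tested.

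Under quantile normalization that core median was 0.03. Spike-in scaling moved all genes, with a median of -1.35 over them and -0.90 over the core, and 36 of 87 members were lower and 1 higher, against 67.5% of all genes lower and 1.1% higher. With the 75th percentile, markers moved too: 11 of 16 immediate-early and stress genes and 4 of 6 megakaryocyte markers were called higher, and 5 of 8 GMP markers lower. On diseased GMP arrays the median of the immediate-early and stress genes was 5.87 in RAEB and 4.38 in MDS/MPN, against 2.57 to 4.56 on the other GMP arrays. On diseased LSK arrays it was 5.24 in RAEB and 2.41 in MDS/MPN, against 4.76 to 6.21 on the other LSK arrays. Of 71 ribosome biogenesis genes, 12 were called lower and 0 higher, with a median of -0.57. The part of these genes in the members' values was not tested.

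A few members stood apart on single arrays. Rpl39l, a testis paralog of Rpl39, was well above background on 3 arrays only: at -0.69 in Ezh2-null LSK cells, -1.96 in Ezh2-null GMPs and -3.07 in wild-type GMPs. In LSK cells the Ezh2-null array was at least 10.2-fold higher than the Tet2 knockdown array and at least 19.0-fold higher than the double mutant array, with the other 3 in between. Those bounds use the lowest level well above background on each array. In GMPs the Ezh2-null array was 2.15-fold higher than the wild-type array. The double mutant arrays, which lack Ezh2 too, were not well above background, at -5.98 in GMPs and -6.17 in LSK cells. Over the 4 pairs of the Ezh2 comparison Rpl39l was not called (limma adjusted p = 0.85).

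Rps4l ranged most widely among members well above background on 12 arrays, from 3.45 in MDS/MPN GMPs to -0.999 in MDS/MPN LSK cells. In Ezh2-null cells it was at 1.97 in GMPs and 2.35 in LSK cells. Rps2 was lower than the block on the diseased GMP arrays, by 0.62 in RAEB and 0.33 in MDS/MPN relative to its usual distance from the core median, and it was at 9.26 and 9.55 there. These are values of its brightest probe, whose GMP minus LSK difference was 0.11, while that of its other probe was 0.48. Rpl3l, the muscle paralog of Rpl3, stayed at or below -2.59 on all 12 arrays and was well above background on 5.

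**Figure D5:**
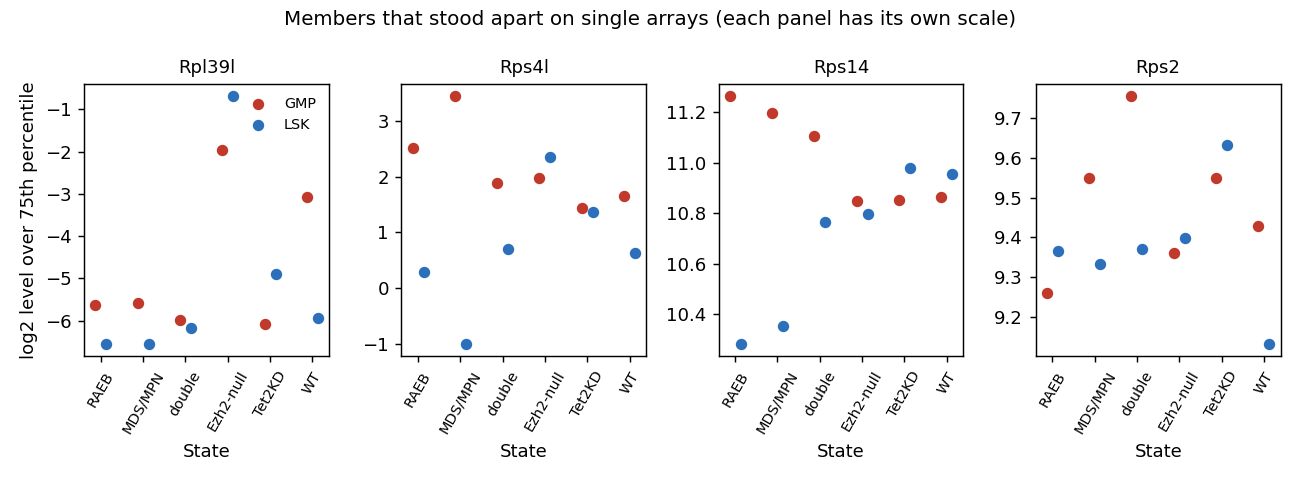
Levels of Rpl39l, Rps4l, Rps14 and Rps2 on each array, as log2 over the 75th percentile (vertical axis, own scale per panel), by state, with GMP in red and LSK in blue. Rpl39l is highest on the Ezh2-null arrays, at -0.69 in LSK cells and -1.96 in GMPs, both below the 75th percentile. It was not well above background on the double mutant arrays, which lack Ezh2 too. Relative to the 75th percentile, Rps14 is lower on the diseased LSK arrays, at 10.28 and 10.35, than on the other LSK arrays. That percentile was highest on the diseased LSK arrays, and Rps14 was also lower there relative to the core median.

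Different probes of 1 gene mostly went the same way. Among 50 core genes with several probes well above background on 12 arrays, 128 of 136 probes were higher in GMPs than in LSK cells. In 7 genes (Rpl6, Rpl14, Rpl15, Rpl21, Rpl22, Rps6 and Rps24) the probes differed in sign. The median range between probes of 1 gene was 0.07, and the largest was 5.41, for Rps24.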

How the data were processed

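Total RNA and one-colour spike-ins received Cy3, per the labels' protocols. The deposited processed signal is a background-corrected intensity from Agilent's Feature Extraction software, per the file headers, and the deposited median spot and background signals are intensities too. Control, saturation, outlier and background flags are deposited beside them, among other columns. The authors' value table held the same intensity as the scanner files at all 62976 spots. No gene spot was saturated.

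Probes were named through RefSeq accessions (GRCm38.p6, names only): 26762 of 55681 gene probes had 1 symbol, 0 several and 28919 none. Spots of a probe were averaged, levels scaled on the 75th percentile, and the brightest probe kept. Linear models were fitted per gene with moderated two-sided tests (R 4.3.3, limma 3.58.1), and p-values were adjusted by Benjamini-Hochberg across 13713 genes, with 0.05 as the threshold. GMP minus LSK and the contrasts of states used 12 arrays with cell type and state. Ezh2 loss and Tet2 knockdown used 8 arrays with cell type and both genotypes. Scripts were tested on simulated data. The number of arrays limits the precision.

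Members and lists were chosen with earlier results of these data known. Named were the P stalk, disease-linked, X-linked and paralog genes with their parents, up to 6 called members per direction with 1 sign in all matched pairs or, with none called, up to 4 as values, and up to 3 genes per other list. Alternatives were quantile, detected-probe median and spike-in scaling, normexp on the median signals with an offset of 50, the authors' table, the mean of probes, other filters, trend and robust eBayes, the sex pattern, 1 slide, a disease term, a genotype block and leaving out each array. Scaling on the core median, the mitochondrial list, the paralog test and the disease by cell type test were added after seeing the data. Some results are not reported here.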

Additional observations from a re-analysis of the deposited data

Results flagged for a closer look

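The 6 arrays of each cell type were searched for 1 array lying apart, by Dixon's ratio of the gap to the range, for the members that are named in each comparison. Of 48 searches 3 passed its critical value, and chance alone would give about 1 in 20. The 6 arrays differ in state, so they are not replicates of 1 group. Rpl10 was at 10.40 on the Tet2 knockdown LSK array, above the other 5 LSK arrays. The core median, at 9.78 on that array, was also the highest of the LSK arrays. Relative to its usual distance from the core median, Rpl10 was at -0.03 there and at -0.25 to -0.08 on the other 5. Rpl22l1 was at 7.36 on the RAEB GMP array, below the other 5 GMP arrays. Rpl39l was at -0.69 on the Ezh2-null LSK array, above the other 5 LSK arrays.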

How the results depend on the processing

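The number of members called between GMP and LSK (33) was 8 under quantile normalization, 20 with the median of detected probes, 0 with spike-in scaling, 15 with no filter, 13 with the sex pattern as a covariate, 15 on 8 arrays of 1 slide and 2 when scaled on the core median. Without 1 array it ran from 8 to 31; it was 8 without either double mutant array, 13 without either wild-type or either MDS/MPN array and 17 without either Ezh2-null array. The core median (0.36) was -0.0289 under quantile normalization and -0.00535 when scaled on itself. Rpl22 became -0.38 with the mean of probes, and Rpl5 became -0.14 under quantile normalization and -0.0310 when scaled on the core median. In the 7 other comparisons planned, 0 members were called under each alternative run. Their core medians moved with spike-in scaling to -0.13 for Tet2 knockdown, -0.38 for Ezh2 loss in GMP minus LSK, -0.20 for double mutant minus wild-type and -0.15 for RAEB minus MDS/MPN, where the medians of all genes were -0.24, -0.49, -0.27 and -0.25 in turn. None of the 7 core medians kept its sign under every alternative run: they ranged from -0.07 to 0.02 for Ezh2 loss, -0.13 to 0.195 for Tet2 knockdown, -0.38 to 0.24 and -0.22 to 0.16 for their differences between cell types, -0.20 to 0.17 for double mutant minus wild-type, -0.22 to 0.19 for diseased minus double mutant and -0.20 to 0.23 for RAEB minus MDS/MPN. For diseased minus double mutant the core median became -0.22 with the sex pattern as a covariate and -0.17 when scaled on the core median. In the fit over 12 arrays the sex covariate cannot be told apart from disease by cell type. For RAEB minus MDS/MPN it was 0.0566 with the median of detected probes, 0.000411 with normexp and 0.00212 with the mean of probes, and without 1 array it ran from -0.20 to 0.23. For the disease by cell type test, members called numbered 1 with the median of detected probes, 37 with spike-in scaling, 7 with normexp, 13 with no filter, 5 on genes well above background on 12 arrays and 27 with trend and robust eBayes. Those are 1.15%, 42.5%, 8.05%, 14.8%, 5.88% and 31% of members, against 7.81%, 68.6%, 25.7%, 26.2%, 12.3% and 10.3% of all genes. Its core median was 0.0280 under quantile normalization, -0.90 with spike-in scaling, 0.31 with normexp, 0.40 with the mean of probes and 0.0705 when scaled on the core median, and 0.46 to 0.56 without 1 array. The cause of each change was not tested. No paired analysis beyond state as a block was possible because each group has 1 array.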
